A study of Mus musculus with 6 samples.

Results

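The genes described here were close to silent in control C2C12 cells and higher after Kap1 knockdown in every pair of libraries. C2C12 is a mouse myoblast line, labelled strain C3H, whose cells stop dividing and fuse into myotubes when serum is withdrawn. The 6 libraries of polyadenylated cytoplasmic RNA came from cells transduced with a lentiviral hairpin. The hairpin targeted Kap1 (LV sh-Kap1, written shKap1) or, in the controls, luciferase (LV sh-Luc, written shCtrl). The shKap1 groups were proliferating myoblasts (MB, 2 libraries) and cells after 48 hours of differentiation (MT, 1 library). Differentiation medium contained 2% horse serum with a supplement of insulin, transferrin and selenium. The shCtrl groups were MB (2 libraries) and MT (1 library) treated in the same way.

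All 6 libraries thus carry a lentivirus, and nothing in the labels says that the replicates were separate cultures or transductions. P-values therefore cover only the variation among these libraries, part or all of which may be technical. A difference between the 2 transduced populations that arose apart from the loss of Kap1 cannot be told apart from the knockdown.

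A gene was taken as near-silent when its mean over the 3 shCtrl libraries was under 1 CPM (counts scaled to the library's total on genes) and at least 1 library held 10 or more counts. It was kept when log2((shKap1 CPM + 0.05)/(shCtrl CPM + 0.05)) was 1 or more in MB replicate 1, in MB replicate 2 and in MT. Genes of the Serpina1, Cyp2b, Kank and Oas families and Myh11, Lmod1 and Col11a1 were left out. Of 37991 genes measured, 3741 were near-silent and 111 of these (2.97%) met the rule. The mirrored rule, near-silent in shKap1 and lower by 1 or more in every pair, was met by 22 of 3778 genes (0.582%). Because the rule used every knockdown pair, the knockdown values of the 111 genes are a description. Where the tests run over all genes are given for them, they stand beside their background and support nothing.

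KAP1, the product of Trim28, is a corepressor that KRAB zinc finger proteins bring to DNA. It recruits the histone methyltransferase SETDB1 and HP1 proteins, which leave the region with trimethylated lysine 9 of histone H3. Endogenous retroviruses and imprinted loci are among its best studied targets. In myoblasts it has also been described as a partner of MyoD and Mef2, the transcription factors of the muscle programme.

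Trim28 itself was measured at 152 and 101 CPM in the MB shKap1 libraries and at 122 CPM in the MT shKap1 library, against 587 and 417 CPM in MB shCtrl and 382 CPM in MT shCtrl. The libraries held 36247530 to 49839994 counts on genes, so that 3 counts, used as the floor of detection, correspond to 0.0602 to 0.0828 CPM. The summed level of 6 myoblast markers was 508 to 1388 CPM in shKap1 and 695 to 3138 CPM in shCtrl libraries, and the MT shKap1 library (1194 CPM) was below the MT shCtrl library (3138 CPM). Among 7 macrophage and dendritic markers, the summed level was 11.3 to 14.2 CPM in shKap1 and 8.77 to 15.7 CPM in shCtrl libraries, and Adgre1 was at 0 in all 6. Among 6 hepatocyte markers it was 0.193 to 1.08 CPM in shKap1 and 0.201 to 1.81 CPM in shCtrl libraries, with Alb, Ttr, Tat and Fgb at 0 in all 6. Counts from fewer cells that express a gene and from less RNA per cell cannot be told apart in these bulk libraries.

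The promoters of 4 of the genes are given first, to show how far the start regions within the group differ. Each is the 250 bases before the start in RefSeq's GRCm38.p6 table, written 5′ to 3′ on the gene's strand with every CpG in capitals. Cdhr2 lies on the plus strand (chr13:54701213-54701462) and Vmn2r96 on the plus strand (chr17:18581477-18581726). Gm1110 lies on the minus strand (chr9:26923082-26923331) and Zfp804a on the plus strand (chr2:82053408-82053657).
Cdhr2: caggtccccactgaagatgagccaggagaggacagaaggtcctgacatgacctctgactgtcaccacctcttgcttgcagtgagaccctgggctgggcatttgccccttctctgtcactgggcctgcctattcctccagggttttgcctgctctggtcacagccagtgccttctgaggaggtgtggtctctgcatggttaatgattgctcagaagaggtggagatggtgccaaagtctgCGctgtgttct
Vmn2r96: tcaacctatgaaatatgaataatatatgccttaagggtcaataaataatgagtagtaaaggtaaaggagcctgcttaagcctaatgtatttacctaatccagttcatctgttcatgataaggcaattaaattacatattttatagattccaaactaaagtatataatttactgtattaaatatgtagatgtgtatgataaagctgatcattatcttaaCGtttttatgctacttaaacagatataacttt
Gm1110: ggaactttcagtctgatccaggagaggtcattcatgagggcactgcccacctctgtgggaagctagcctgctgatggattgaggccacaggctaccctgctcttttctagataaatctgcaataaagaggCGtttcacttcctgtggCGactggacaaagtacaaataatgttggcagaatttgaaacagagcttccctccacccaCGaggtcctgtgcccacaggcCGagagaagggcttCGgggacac
Zfp804a: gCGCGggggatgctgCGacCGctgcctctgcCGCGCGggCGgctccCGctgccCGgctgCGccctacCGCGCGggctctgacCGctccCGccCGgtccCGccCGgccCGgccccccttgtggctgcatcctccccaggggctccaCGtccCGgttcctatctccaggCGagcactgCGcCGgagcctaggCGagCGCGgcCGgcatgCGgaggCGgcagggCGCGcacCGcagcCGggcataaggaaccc
The Cdhr2 window holds 1 CpG in sequence that is 56% G or C, and the Vmn2r96 window holds 1 CpG at 26.8%. The Gm1110 window has 5 CpGs and the Zfp804a window 35, at 78.4% G or C. TATAAA, searched on both strands, occurs in the Vmn2r96 window and not in the other 3, and in 12.4% of the 32851 promoters in the table. CANNTG, the E-box, occurs once each in the Cdhr2 and Vmn2r96 windows and in 66.2% of all promoters. A promoter was found for 61 of the 111 genes (55.0%), too few to compare the promoters of the group with those of other genes, so that comparison is void. The median over all promoters in the table was 6 CpGs.

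By the rule all 111 genes were higher in shKap1, and the heat map of all of them shows that the amounts differed. Their summed level was 97.4 and 119 CPM in the MB shKap1 libraries and 170 CPM in the MT shKap1 library, against 21.8 and 19.9 CPM in MB shCtrl and 32.9 CPM in MT shCtrl. The median log2 ratio was 1.72 in MB replicate 1, 1.90 in MB replicate 2 and 1.99 in MT, beside 0.19, 0.03 and 0.11 over all near-silent genes. The largest of a gene's 3 ratios was the MT one for 53 genes, the MB replicate 2 one for 45 and the MB replicate 1 one for 13. A ratio of 2 or more on the log2 scale in every pair was reached by 15 genes, and of 3 or more by 6.

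**Figure D1:**
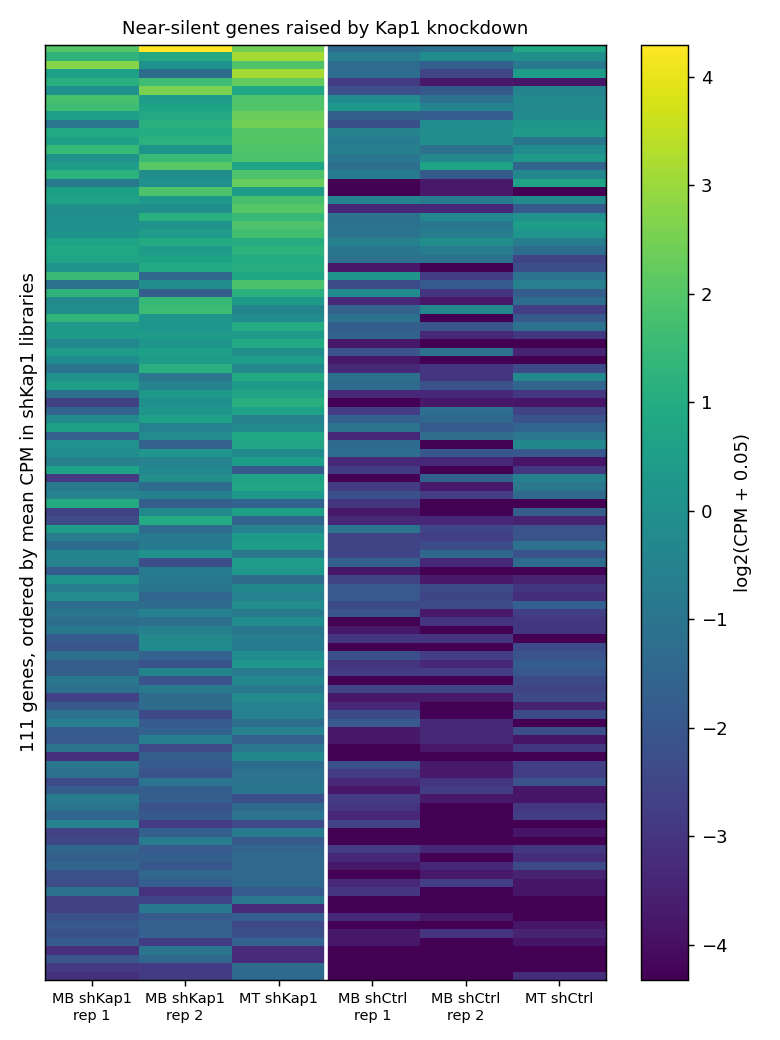
Heat map of log2(CPM + 0.05) for the 111 genes (rows, ordered by mean CPM in the shKap1 libraries) in the 3 shKap1 and 3 shCtrl libraries (columns). The shCtrl columns are darker because the rule asked for a ratio of 1 or more on the log2 scale in each pair, and summed levels were 97.4 to 170 CPM in shKap1 and 19.9 to 32.9 CPM in shCtrl libraries.

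Depth limits how firmly single genes are placed. In shKap1, 76 of the 111 genes had 10 or more counts in all 3 libraries and 21 had 1 CPM or more in all 3. In shCtrl, 7 genes had 0 counts in all 3 libraries and 19 had 3 or fewer counts in all. The exact 95% interval of the ratio of counts, which covers counting error only, lay above 1 in every pair for 73 genes. The rule itself favours such intervals, and the share over all near-silent genes is not given here, so nothing is read from that count. The lowest shKap1 value lay above the highest shCtrl value for 83 of the 111 genes, beside 271 of the 3741 near-silent genes (7.24%), and the rule itself favours that order. The genes that only just met the rule were Ppp1r26, with a smallest log2 ratio of 1.00, and Zfp467 and Msi1, both with 1.01. Gm13632 (0.98), Gpsm3 (0.97) and Cd22 (0.96) fell just short of it.

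**Figure D2:**
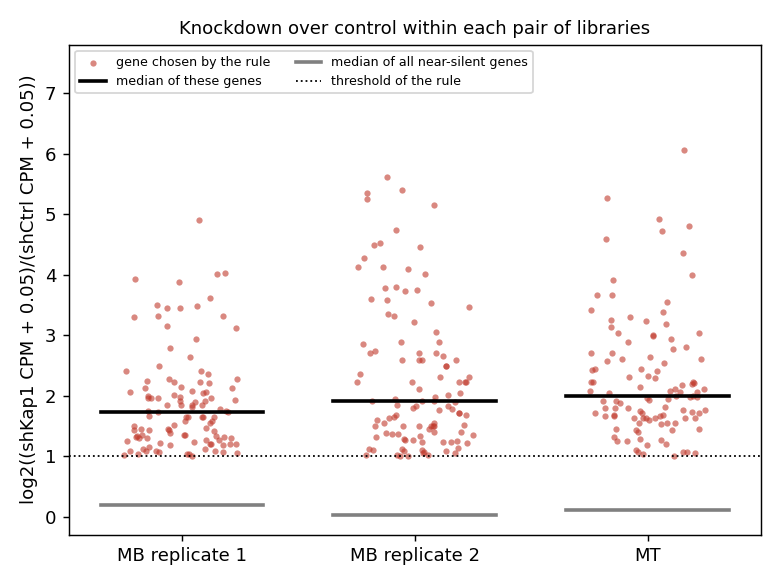
Log2((shKap1 CPM + 0.05)/(shCtrl CPM + 0.05)) of each of the 111 genes (points) in the 3 pairs of libraries. Black lines are their medians (1.72, 1.90 and 1.99), grey lines the medians of all 3741 near-silent genes (0.19, 0.03 and 0.11), and the dotted line is the rule's threshold of 1.

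The rule was also applied to 2 pairs, and the third pair was read for the genes so chosen. Each pair has its own shKap1 and its own shCtrl library. Of 180 genes chosen on MB replicate 2 and MT, 107 (59.4%) had a log2 ratio of 1 or more in MB replicate 1 and none had -1 or less. The shares over all near-silent genes in that pair were 13.8% and 3.79%. Of 214 genes chosen on MB replicate 1 and MT, 104 (48.6%) were at 1 or more in MB replicate 2 and 2 (0.935%) at -1 or less, beside 10.6% and 6.93%. Of 182 genes chosen on the MB pairs, 114 (62.6%) were at 1 or more in MT and 12 (6.59%) at -1 or less, beside 17.6% and 11.9%. The median log2 ratio of the chosen genes in the pair not used was 1.19, 0.92 and 1.44, beside 0.17, 0.00 and 0.15 over the near-silent genes. A near-silent gene that was higher in 2 pairs was thus higher in the third more often than near-silent genes in general, and 37.4% to 51.4% of the chosen genes did not reach the threshold there.

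**Figure D3:**
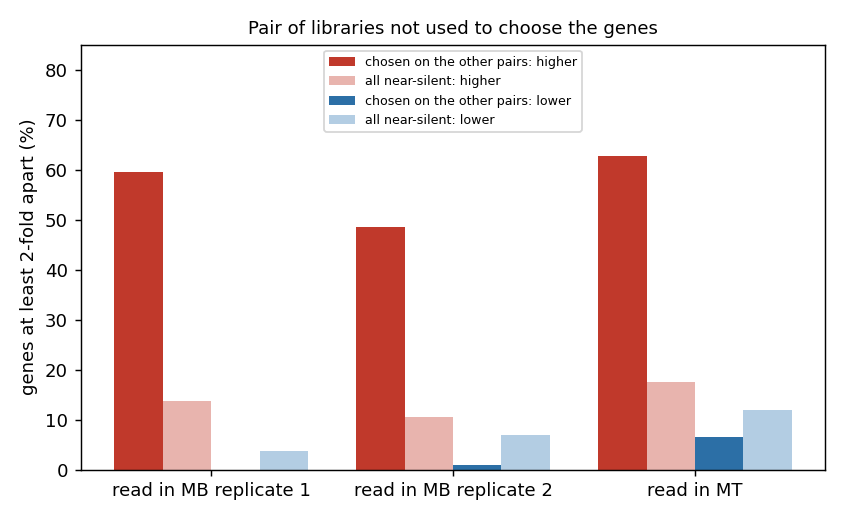
Share of genes (%) with a log2 ratio of 1 or more (red) or of -1 or less (blue) in the pair of libraries that was not used to choose them, for genes chosen on the other 2 pairs (dark) and for all near-silent genes (pale). The dark red bars stand at 59.4%, 48.6% and 62.6%, the pale red ones at 13.8%, 10.6% and 17.6%.

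Cdhr2, a cadherin-related protein of the brush border of intestine and kidney, had the largest smallest-pair ratio of the group. It had 67, 158 and 46 counts in the MB replicate 1, MB replicate 2 and MT shKap1 libraries, against 0, 1 and 0 counts in the matching shCtrl libraries. The ratio of summed counts, scaled to library size, was 284 (95% counting interval 50.5 to 1.12e+04), and the smallest of the 3 log2 ratios was 4.72. No 31-base word of its transcripts occurs in another gene of the annotation.

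Chemosensory receptor genes, which are normally used by sensory neurons of the nose, supplied 4 of the 111. Of 10 near-silent vomeronasal receptor genes, 3 met the rule (30%), and of 6 near-silent olfactory receptor genes, 1 did (16.7%), beside 2.97% of all near-silent genes. The files list 365 vomeronasal and 985 olfactory receptor genes, and a gene could reach the minimum of 10 counts through its shKap1 level alone, so the shares are a description. The pseudogene Vmn2r-ps119 had 101, 131 and 167 counts in shKap1 (MB replicate 1, MB replicate 2, MT), against 4, 1 and 1 counts in shCtrl. The receptor gene Vmn2r96 had 43, 41 and 146 counts in shKap1, against 2, 2 and 11 counts in shCtrl. Both genes had far more counts in each shKap1 library than in any shCtrl library. The pseudogene Vmn1r-ps120 had 40, 56 and 49 counts in shKap1, against 1, 0 and 0 counts in shCtrl. Olfr1259, an olfactory receptor gene, had 8, 14 and 12 counts in shKap1, against 0, 1 and 2 counts in shCtrl. Of their 31-base words, 82.4% of those of Vmn1r-ps120, 38.5% of those of Vmn2r-ps119 and 33.4% of those of Vmn2r96 occur in other genes, so reads may belong to a near-identical copy. The marker of mature olfactory neurons, Omp, was at 0.193 to 0.857 CPM in shKap1 and 0.181 to 0.664 CPM in shCtrl libraries. Gnai2 and Gng8, from the same marker list, were higher in shKap1 in every pair, and Gnao1 in the MB pairs only. Gnai2 was at 391, 490 and 418 CPM in shKap1, against 369, 441 and 345 CPM in shCtrl. Gng8 was at 2.14, 1.53 and 3.42 CPM in shKap1, against 1.74, 1.53 and 2.19 CPM in shCtrl.

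Zinc finger genes gave 5 of the 50 that were near-silent (10.0%), beside 2.97% of all near-silent genes. A gene could reach the count minimum through its shKap1 level alone, so the share is a description. Many zinc finger genes encode the DNA-binding proteins that bring KAP1 to its targets. Whether these 5 do so was not tested. Zfp988 was at 1.41, 2.20 and 4.03 CPM in shKap1, against 0.524, 0.910 and 0.461 CPM in shCtrl. Of its 31-base words 79.5% occur in other genes, most often in Zfp987, and its counts are uncertain for that reason. Zfp467 was at 1.01, 2.75 and 3.53 CPM in shKap1, against 0.477, 0.763 and 1.18 CPM in shCtrl, so that the MT shCtrl library lay above the lowest shKap1 library. Zfp804a was at 1.31, 1.40 and 0.910 CPM in shKap1, against 0.191, 0.418 and 0.0401 CPM in shCtrl, with no overlap. Zfp936 and Zfp773 were lower in counts, with 18 to 45 and 8 to 21 in shKap1, against 5 to 13 and 0 to 4 in shCtrl. They share 31.4% and 17.7% of their words with other genes.

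Receptors, channels and signalling proteins of other tissues were also present. Rasgrp3, which activates Ras in lymphocytes, was at 6.54, 1.01 and 3.70 CPM in shKap1, against 0.358, 0.246 and 0.502 CPM in shCtrl. Epas1, the oxygen-regulated transcription factor HIF-2α, was at 0.965, 5.91 and 1.74 CPM in shKap1, against 0.167, 0.221 and 0.682 CPM in shCtrl. Both were above all shCtrl libraries in every shKap1 library, and in both the MB shKap1 replicates stood far apart, in opposite order. Sstr5, a somatostatin receptor, had 90, 11 and 10 counts in shKap1, against 3, 0 and 0 counts in shCtrl. Trpv6, an epithelial calcium channel, was at 0.493, 2.06 and 5.41 CPM in shKap1, against 0.167, 0.861 and 1.12 CPM in shCtrl, with overlap between the groups. Grin2a, named after its values had been seen and a subunit of the NMDA glutamate receptor, had 7, 82 and 11 counts in shKap1 and 2 counts in each shCtrl library. In all, 13 of the 111 genes differed more than 4-fold between the MB shKap1 replicates. The share over all near-silent genes is not given here, and nothing particular to the group is read from this count.

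Enzymes formed a further set. Aoc3, an amine oxidase of vessel walls and adipocytes, was at 2.36, 1.79 and 8.80 CPM in shKap1, against 0.572, 0.861 and 0.923 CPM in shCtrl. Mep1a, a metalloprotease of the brush border, was at 1.46, 0.366 and 8.75 CPM in shKap1, against 0.381, 0.123 and 1.30 CPM in shCtrl. The Aoc3 groups did not overlap, whereas MB replicate 2 shKap1 lay under 2 shCtrl libraries for Mep1a. Bckdhb, a subunit of the branched-chain keto acid dehydrogenase, was at 1.29, 4.10 and 1.57 CPM in shKap1, against 0.405, 1.55 and 0.301 CPM in shCtrl, and the groups overlapped. Of 17 near-silent cytochrome P450 genes 2 met the rule (11.8%), beside 2.97% of all near-silent genes, and this share too is a description. Cyp11b1, an enzyme of glucocorticoid synthesis in the adrenal gland, had 111, 11 and 79 counts in shKap1, against 35, 3 and 12 in shCtrl, and Cyp4a12b, a fatty acid hydroxylase, had 18, 17 and 31 counts in shKap1, against 0, 3 and 4 in shCtrl. Cyp11b1 shares exon sequence with an antisense gene, and the 2 strands cannot be told apart here. Of the 31-base words of Cyp4a12b 62.9% occur in other genes, most often in Cyp4a12a, and its counts are uncertain for that reason.

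Further genes of the group are known from immune cells. Igkv4-50, a variable segment of the immunoglobulin kappa chain, had 36, 47 and 68 counts in shKap1, against 1, 0 and 0 counts in shCtrl, a ratio of 158 (95% counting interval 27.9 to 6.28e+03). H2-DMb1, which helps to load peptides onto class II molecules, had 3, 4 and 12 counts in shKap1, against 0, 0 and 3 counts in shCtrl. Igkv4-50 shares 18.6% of its 31-base words with other genes and H2-DMb1 31.4%, so reads may belong to a similar gene. Arhgap9, a gene used mainly by blood cells, was at 1.59, 1.53 and 1.93 CPM in shKap1, against 0.405, 0.418 and 0.120 CPM in shCtrl. Casp1 and Itln1 were chosen after their values had been seen. Casp1, the caspase that matures interleukin 1β, had 45, 12 and 57 counts in shKap1, against 15, 0 and 37 counts in shCtrl. Itln1, an intestinal lectin, had 6, 23 and 8 counts in shKap1 and 0 in all shCtrl libraries. Its ratio of summed counts would be 12.9 if the shCtrl libraries together had held 3 counts. The lower 95% counting limit of that ratio at 0 control counts was 9.98. The pan-leukocyte gene Ptprc was at or under 0.0229 CPM in shKap1 and at or under 0.0492 CPM in shCtrl libraries.

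**Figure D4:**
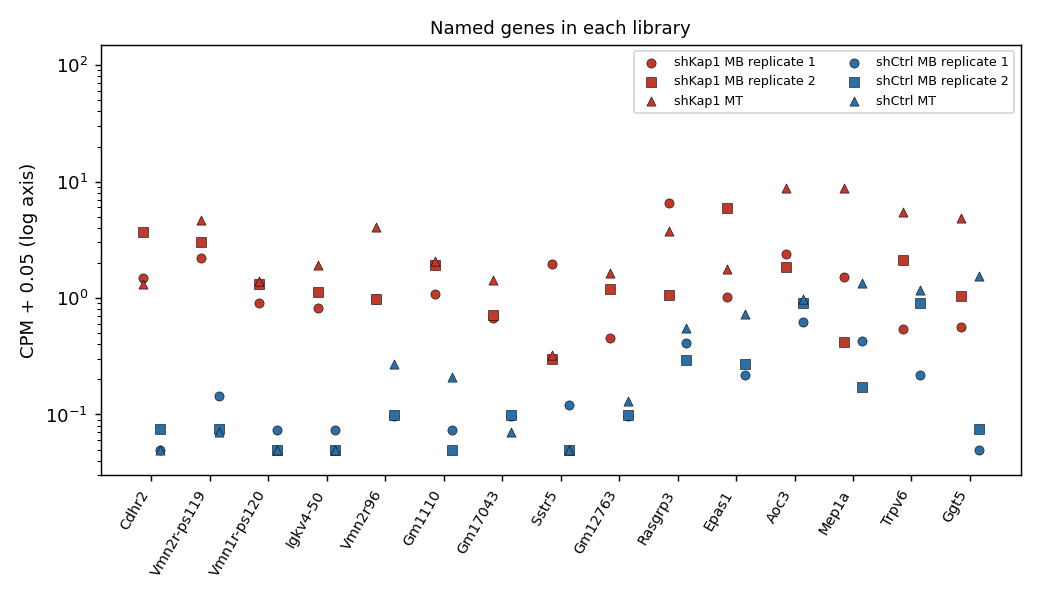
CPM + 0.05 (log axis) of 15 named genes in the 3 shKap1 libraries (red) and the 3 shCtrl libraries (blue), with 1 symbol per library. The shKap1 points of Cdhr2 lie at 1.27 to 3.62 CPM and its shCtrl points at 0 to 0.0246 CPM, whereas the groups overlap for Mep1a, Trpv6 and Ggt5.

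By annotation class, 84 of the 111 genes (75.7%) were protein coding, beside 56.9% of near-silent genes, 10 (9.01%) were pseudogenes of any kind, beside 10.4%, and 14 had no entry in the annotation that supplied the symbols. Unprocessed pseudogenes, which are copies of whole gene segments, gave 6 of 36 near-silent ones (16.7%), and processed pseudogenes, which are copies of mRNA, gave 2 of 297 (0.673%). Of the 6 unprocessed pseudogenes, 3 lie in a row on chromosome 13 and 2 lie side by side on chromosome 12. Each of the 6 shares 66.3% or more of its 31-base words with other genes, so they are not 6 independent cases. Predicted genes with a Gm symbol gave 11 of 792 (1.39%), clones with a Rik symbol 2 of 253 (0.791%) and solute carriers 2 of 52 (3.85%). Over all near-silent genes the share was 2.97%. A gene could reach the count minimum through its shKap1 level alone, so the shares by class are a description. The solute carriers were Slc4a5 and Slc26a7, a bicarbonate transporter and an anion exchanger. Slc4a5 had 60, 57 and 43 counts in shKap1, against 12, 2 and 4 counts in shCtrl. By symbol, none of the near-silent genes named Krt (9), Pcdh (12), Clec (7) or Serpin (16) met the rule as applied, which had left out the Serpina1 genes. Of 2 other lists known for dependence on silencing, germline genes gave 0 of 7 near-silent and genes of the 2-cell embryo 0 of 2.

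Among the predicted genes, Gm11331 was at 3.94, 19.6 and 5.41 CPM in shKap1, against 0.358, 0.418 and 1.71 CPM in shCtrl. Its partner in sequence, Gm14219, had 21, 92 and 28 counts in shKap1, against 2, 3 and 7 counts in shCtrl. Both were highest in the MB replicate 2 shKap1 library. Of the 31-base words of Gm11331 70.5% occur in other genes, most often in Gm14219, so the 2 are not independent. Gm1110 had 48, 81 and 73 counts in shKap1, against 1, 0 and 8 counts in shCtrl, and shares no such word. Gm12763 had 19, 50 and 58 counts in shKap1, against 2, 2 and 4 counts in shCtrl. Over the 97 genes with transcript sequence, 26 share more than 10% of their words with other genes, 12 more than 50% and 3 more than 90%, and the median is 0.466%. Exons of 7 genes overlap an antisense gene, Fam241b and Arhgap9 among them, and none overlaps another gene on the same strand.

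The 97 genes with an annotated chromosome were spread over 18 chromosomes. Of the 93 genes placed in RefSeq gene order, 7 had another of the group next to them, in 3 clusters. The group makes up 3.28% of the 2839 near-silent genes placed. How often near-silent genes in general lie next to one of the group is not given here, so the count is a description. On chromosome 10, Ggt1 and Ggt5, which encode γ-glutamyltransferases, lie side by side. Ggt1 had 20, 6 and 24 counts in shKap1, against 6, 0 and 7 counts in shCtrl, and Ggt5 had 24, 43 and 176 counts in shKap1, against 0, 1 and 75 counts in shCtrl. On chromosome 12, Gm17043 had 29, 29 and 50 counts in shKap1, against 2, 2 and 1 counts in shCtrl, and its neighbour Gm8893 had 5, 11 and 19 counts in shKap1, against 0, 0 and 1 counts in shCtrl. They lie in the Serpina1 locus, and the flanking Serpina1d, a protease inhibitor gene of the liver that the rule left out by name, was at 1.61, 3.30 and 12.7 CPM in shKap1, against 0.0715, 0 and 0.140 CPM in shCtrl. Gm8893 shares 75.2% of its words with other genes, Serpina1a foremost, and Gm17043 shares 66.3%. On chromosome 13, Gm11321, Vmn1r-ps120 and Gm11318 lie in a row. Gm11321 had 10, 12 and 5 counts in shKap1, against 0, 0 and 1 counts in shCtrl, and Gm11318 had 5, 22 and 2 counts in shKap1 and 0 in all shCtrl libraries. These 2 share 100% and 93.7% of their words with other genes, mainly with each other, and their counts cannot be assigned with certainty.

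The genes next to the group could be compared by direction only. A near-silent neighbour with a log2 ratio of 1 or more in every pair would belong to the group itself, unless the rule left it out by name. Of 90 adjacent genes outside the group with 10 or more counts in a library, 39 (43.3%) had a ratio above 0 in all 3 pairs and 6 (6.67%) one below 0 in all 3, beside 24.4% and 11.7% of the 14919 genes outside the group that were placed. Among the 39 is 1 gene with a log2 ratio of 1 or more in every pair, Serpina1d, which the rule left out by name. The median log2 ratio of the adjacent genes was 0.11, 0.15 and 0.28 in MB replicate 1, MB replicate 2 and MT, beside 0.03, 0.02 and 0.14 over those 14919 genes. With totals scaled by TMM the shares above 0 were 36.7% and 18.6%.

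In edgeR's quasi-likelihood test of all 16472 genes that passed the filter on low counts, with no batch term, no gene passed an adjusted p of 0.05 in any contrast. All 111 genes had passed that filter, which they could do through their shKap1 level alone. At an unadjusted p under 0.05, 77 of them were higher in MB shKap1 than in MB shCtrl, beside 2.03% of all genes, and 41 in MT shKap1 than in MT shCtrl, beside 3.43%. DESeq2 gave 8 of the 111 in MB, beside 0.223% of genes higher, and 7 in MT, beside 0.403%. A mark in the file names sets MB replicate 1 and the MT libraries apart from MB replicate 2 in both arms, and it was treated as a batch. The sources used here do not say what the mark means, and every value given with a batch term depends on that choice. With a batch term, 61 of the 111 passed in MB, beside 2.5% of all genes higher, and 65 in MT, beside 9.09%. The rule used these contrasts, so nothing is read from the counts. The MT groups hold 1 library each and are assumed to vary like the MB groups.

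Of 27 genes of the KAP1 silencing machinery measured, none passed in either knockdown contrast without the batch term. At an unadjusted p under 0.05 there were 3 in MB, beside 2.76% of all genes, and 1 in MT, beside 8.4%, with Trim28 in both. DESeq2 called 1 in MB, beside 0.302% of genes, and 1 in MT, beside 2.39%. With the batch term 2 of the 27 passed in MB, beside 3.84% of all genes, and 4 in MT, beside 20.3%. Trim28 fell in MB (log2 fold change -2.03) and in MT (-1.78). The others that passed in that fit were Morc3 in MB (0.45) and Setdb1 (0.71), Dnmt3a (-0.59) and Cbx5 (-0.52) in MT, named after their values had been seen. Morc3 is a nuclear ATPase that silences retroviruses, Dnmt3a a DNA methyltransferase and Cbx5 the gene of HP1α. The median log2 change of the list without Trim28 was -0.05 in MB and 0.00 in MT, beside -0.01 and 0.02 over all genes.

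The rule did not use the contrast of MT with MB within the knockdown cells, but it used each of these libraries in a knockdown pair. A gene could also reach the count minimum through 1 shKap1 library. The values and p-values of the 111 genes in this contrast are therefore a description. The MT shKap1 value was above both MB shKap1 values for 67 of the 111 genes and below both for 17, beside 55% and 16.4% of near-silent genes. In shCtrl the MT value was above both MB values for 54 genes and below both for 20, beside 55.7% and 21.8%. These counts are close to the background, and nothing particular to the group is read from them. The median log2 change, MT over MB, was 0.57 in shKap1 and 0.60 in shCtrl, against -0.01 and -0.03 over all genes tested. All genes tested are an unlike background for genes of low counts, and the median over near-silent genes is not given here. Nothing particular to the group is read from these medians either. Without the batch term none of the 111 passed in shKap1, 12 had an unadjusted p under 0.05 (10.8%, beside 15.3% of all genes) and DESeq2 called 1 of the 34 to which it gave an adjusted p, Aoc3, beside 6.45% of genes. In shCtrl none passed, 12 had an unadjusted p under 0.05, beside 25.3% of all genes, and DESeq2 called 1 of 88, beside 15.1%. With the batch term 26 were higher and 4 lower in MT shKap1 than in MB shKap1, beside 16.6% and 16.5% of all genes. In shCtrl 22 were higher and 4 lower, beside 22.3% and 22.6%. The batch term places the MT libraries with MB replicate 1 and adjusts MB replicate 2 by a shift that both arms share. These calls rest on 1 MT library in each arm and on that shift. The summed level of the 6 myoblast markers was 1194 CPM in MT shKap1, between the 508 and 1388 CPM of the MB shKap1 libraries, and 3138 CPM in MT shCtrl, above the 695 and 1293 CPM of MB shCtrl. Its part in these values was not tested.

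The genes that were higher in MT shKap1 than in MB shKap1 with the smallest p were Vmn2r96, Aoc3, Col6a4, ENSMUSG00000086101 and Folr1. Vmn2r96 was at 4.03 CPM in MT shKap1, against 0.922 and 0.939 CPM in MB shKap1, a log2 fold change of 2.02 (SE 0.39; edgeR, adjusted p = 0.267, and 0.00275 with the batch term). Aoc3 was at 8.80 CPM in MT shKap1, against 2.36 and 1.79 CPM in MB shKap1, a log2 fold change of 1.99 (SE 0.42; edgeR, adjusted p = 0.267, and 0.00164 with the batch term). Col6a4, a chain of collagen VI, was at 3.67 CPM in MT shKap1, against 0.943 and 1.03 CPM in MB shKap1, and Folr1, a folate receptor, at 1.08 CPM, against 0.257 and 0.183 CPM. ENSMUSG00000086101, which has no symbol, was at 5.10 CPM in MT shKap1, against 1.39 and 1.81 CPM in MB shKap1. All 5 MT values lay above both MB values and passed only with the batch term by edgeR, whereas Aoc3 also passed by DESeq2.

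Those lower in MT shKap1 with the smallest p were Coch, ENSMUSG00000090571, Pcsk6, Ptpru and Gm11318. Coch, an extracellular matrix protein of the inner ear, had 8 counts in MT shKap1, against 72 and 33 counts in MB shKap1, a log2 fold change of -2.45 (SE 1.28; edgeR, adjusted p = 0.426, and 0.00591 with the batch term). Pcsk6, a proprotein convertase, was at 0.690 CPM in MT shKap1, against 0.900 and 2.98 CPM in MB shKap1, and Ptpru, a receptor tyrosine phosphatase, at 0.662 CPM, against 0.836 and 1.47 CPM. Only Coch of the 5 passed with the batch term. Sstr5 also passed in that fit, with 10 counts in MT shKap1, against 90 and 11 counts in MB shKap1. Its MT count was thus far below that of MB replicate 1 only.

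The interaction, the MT knockdown effect minus the MB one, is built from the pairs that the rule used, which set a floor on both effects. Its values are therefore a description and no test of the 111 genes. The median over the 111 genes was 0.09 on the log2 scale, beside 0.01 over all genes. Without the batch term none of the 111 passed, 3 had an unadjusted p under 0.05 (2.70%, beside 5.01% of all genes), and DESeq2 called 0 of the 60 it gave an adjusted p, beside 1.12% of genes. With the batch term 2 passed, both lower, beside 6.63% of all genes lower. They were Ggt5 and Col26a1, and nothing is read from the count.

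Ggt5 was at 4.86 CPM in MT shKap1 and 0.514 and 0.985 CPM in MB shKap1, against 1.50 CPM in MT shCtrl and 0 and 0.0246 CPM in MB shCtrl. Its log2 ratio was thus 1.66 in MT and 3.50 and 3.79 in MB. Col26a1, a collagen gene, was at 1.19 CPM in MT shKap1 and 0.814 and 2.61 CPM in MB shKap1, against 0.361 CPM in MT shCtrl and 0.0477 and 0.0246 CPM in MB shCtrl. In both genes the control cells had more RNA in MT than in MB, and the ratio was smaller in MT. With 0 to 2 counts in each MB shCtrl library, the fitted MB effects depend on the prior count. Gm11331, Gm1110 and Otor followed in the same direction without passing in either fit.

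In the other direction the smallest p belonged to Arhgap9, Aoc3, Sorcs1, Zfp804a and Megf6, and none passed in either fit. Arhgap9 had 70 counts in MT shKap1 and 6 in MT shCtrl, against 74 and 67 counts in MB shKap1 and 17 in each MB shCtrl library. The fitted interaction was 1.95 for Arhgap9 (SE 0.63) and 1.62 for Aoc3 (SE 0.64) on the log2 scale.

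**Figure D5:**
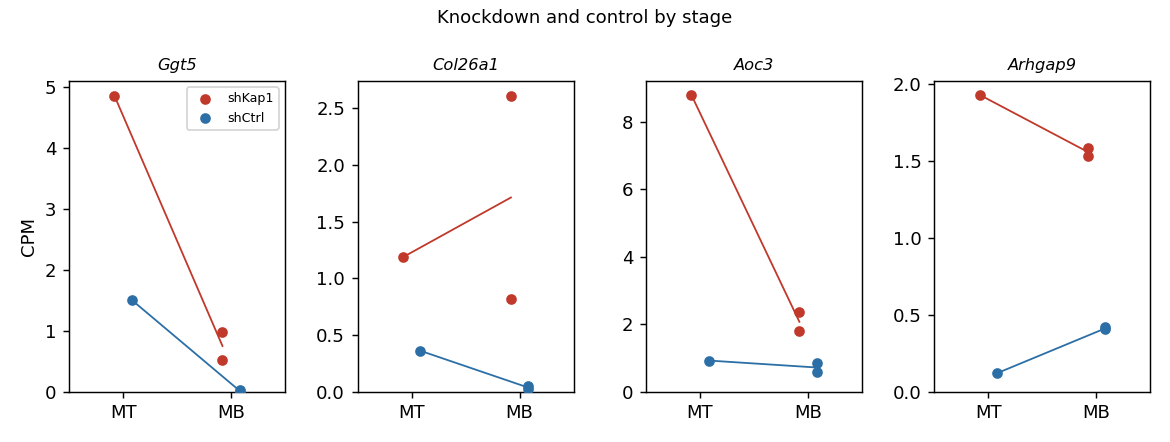
CPM of Ggt5, Col26a1, Aoc3 and Arhgap9 in MT and MB, for shKap1 (red) and shCtrl (blue) libraries, with 1 point per library and lines joining the MT library to the mean of the MB libraries. Ggt5 is at 4.86 CPM in MT shKap1 and 1.50 CPM in MT shCtrl, and at 0 and 0.0246 CPM in MB shCtrl, whereas Arhgap9 is at 1.93 CPM in MT shKap1 and 0.120 CPM in MT shCtrl.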

How the data were processed

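Cytoplasmic polyA RNA of 6 C2C12 libraries was analysed. Each deposited file lists raw counts by Ensembl gene ID. Per the submitters' processing notes, the authors aligned reads to mm9 with TopHat2 2.0.11 and counted them with HTSeq. Annotation release, counting mode and strand were not given in the sources used here. HTSeq's summary lines did not enter the totals: reads in no gene were 5.18% to 8.07% and ambiguous reads 2.81% to 2.93%. Symbols, transcripts and classes came from GENCODE M21 (GRCm38), matched by Ensembl ID for 32919 of 37991 genes, and promoters and gene order from RefSeq by symbol.

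Groups and replicate numbers came from the sample titles. CPM used the gene totals (36247530 to 49839994). The rule on the 3 pairs and the left-out pairs involve no test. The contrasts used edgeR 4.0.16 under R 4.3.3 (TMM factors 0.972 to 1.07, filterByExpr by group, robust quasi-likelihood, Benjamini-Hochberg over 16472 genes, threshold 0.05) in 1 fit of all 6 libraries with a mean per group, which has 2 residual degrees of freedom. Alternatives were a batch term (1 residual degree of freedom), DESeq2 1.42.0, other scaling, pseudocounts, filters and leaving out libraries. TMM moves the median MT log2 ratio of all genes by -0.16. Shared sequence was counted as exact 31-base words of annotated transcripts. Whether replicates of the same number belong together across the arms cannot be decided, since only 2 numbered pairs exist and no label ties them to a shared day.

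Named genes were the 15 genes with a symbol and the highest mean shKap1 CPM, the 10 with the largest smallest-pair ratio, up to 4 of each family or cluster, 3 on either side of the threshold, and 5 each way by p in the differentiation (shKap1) and interaction contrasts. Not every gene so chosen is printed. Members and lists were chosen with earlier results of these data known. Marker lists for endothelial cells (summed level 0.275 to 3.17 CPM in shKap1, 0.320 to 1.30 CPM in shCtrl), adipocytes (6.57 to 29.4 and 3.65 to 27.4 CPM), neurons (16.1 to 28.7 and 6.86 to 28.1 CPM) and vomeronasal tissue (442 to 539 and 382 to 482 CPM) were read as well.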

Additional observations from a re-analysis of the deposited data

How the results depend on the processing

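The number of genes meeting the rule depended on its settings: 175 with a pseudocount of 0.01 CPM, 15 with 0.5 CPM and 73 with a minimum of 30 counts (added after seeing the data), against 111. Leaving out a pair, which relaxes the rule, gave 180 to 214 genes over the MB replicates and 182 without the MT pair. With TMM-scaled totals 103 genes met it and with DESeq2 size factors 102, all of them among the 111. The share in the left-out pair was 46.7% (14 of 30 chosen genes) for MB replicate 1 with a pseudocount of 0.5 CPM. It was 56.3% for MB replicate 2 with 30 counts and 54.5% for MT with a pseudocount of 0.01 CPM. The shares over all near-silent genes in these pairs and settings were 1.47%, 11.95% and 20.9%. In the main setting they were 13.8%, 10.6% and 17.6%, so the background moved with the setting as well. With the replicate block, which here is the batch term, 61 (MB knockdown), 65 (MT knockdown), 30 (MT against MB in shKap1), 26 (MT against MB in shCtrl) and 2 (interaction) of the 111 genes passed, against 0 without it. DESeq2 gave 8, 7, 1 and 1 in the first 4 contrasts, and no filter on low counts gave 1 in MT against MB in shCtrl. Of the KAP1 silencing genes 2 in MB and 4 in MT passed with the block, beside 3.84% and 20.3% of all genes, and 1 in each by DESeq2, beside 0.302% and 2.39% (a list setting added after seeing the data). Leaving out each MB library in turn gave 0 in every contrast. The cause of these differences was not tested, apart from the fewer libraries or stricter minimum that define a setting. The 150 alternative values of named genes in the differentiation and interaction contrasts kept their direction, and 9 passed the threshold. Genes with 0 to 3 control counts have no precise ratio at this depth, and the lone MT libraries allow no replicate check.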
